A study of Mus musculus with 6 samples.

Results

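The genes described here encode T cell costimulators and checkpoints: CD28, ICOS, CTLA-4, PD-1 (Pdcd1), BTLA and LAG-3. They were taken by symbol from the matrix of raw read counts, and all 6 symbols were found among its 48397 genes. Stage 0 invariant natural killer T (iNKT) cells, the earliest iNKT precursors after positive selection, had been sorted from thymi of BALB/c and SKG mice aged 8 to 10 weeks and profiled by RNA-seq. SKG mice carry a hypomorphic Zap70 allele on the BALB/c background, and Zap70 is a kinase that relays signals from the T cell receptor (TCR). The BALB/c mice were wild type, and the labels name no treatment for either genotype. There were 3 libraries per genotype, each made from about 1000 cells of the pooled thymi of 3 mice. The sorted cells bound the PBS57-loaded CD1d tetramer and were CD44-, CD24+, CD69+, CD8- and CD4 low or negative. The comparison asked how weaker TCR signalling altered the RNA of the first committed iNKT cells. A pool hides the variation among its 3 mice, so the spread given below is the spread between pools.

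CD28 and ICOS add a costimulatory signal to that of the TCR, through phosphatidylinositol 3-kinase and adaptors bound to their cytoplasmic tails. CTLA-4 competes with CD28 for CD80 and CD86, and PD-1 and BTLA recruit the phosphatases SHP-1 and SHP-2 to damp TCR and CD28 signalling. LAG-3 is a CD4-related receptor that is grouped with the others for its inhibitory function and not for its sequence. Several of these receptors are induced by TCR engagement, and in the thymus PD-1 is known as a marker of thymocytes that have received strong signals.

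Cd28, Ctla4 and Icos lie next to each other on chromosome 1 of GRCm38, on the plus strand. Cd28 runs from 60716800 to 60773359, Ctla4 from 60887000 to 60915832 and Icos from 60977927 to 61000320, a stretch of 284 kb. Pdcd1 lies 33.0 Mb farther along chromosome 1, from 94038305 to 94052553 on the minus strand. Btla is on chromosome 16 from 45224315 to 45257670 on the plus strand, and Lag3 is on chromosome 6 from 124904361 to 124911705 on the minus strand. The exons of the 6 genes shared 0 bases with other genes among the 46294 counted genes that were matched to the annotation. The remaining counted genes were not checked for overlap.

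Promoter sequences from RefSeq (GRCm38.p6) were matched for 3 of the 6 genes, Ctla4, Pdcd1 and Btla, and these are shown with the letters that TCR-induced transcription factors are known to bind. Each sequence holds 250 bases before and 50 bases after the transcription start and is written 5′ to 3′ on the strand of its gene. Capitals mark matches, on either strand, to the letters TGGAAA (the core bound by NFAT factors), TGANTCA (AP-1) or GTGGGNG (the core bound by Egr factors). The windows are chr1:60908775-60909074 (plus strand) for Ctla4, chr1:94052504-94052803 (minus strand) for Pdcd1 and chr16:45224087-45224386 (plus strand) for Btla. The Ctla4 window lies inside the gene span given above. That span came from GENCODE and begins at 60887000, before the RefSeq start used for the window.
Ctla4: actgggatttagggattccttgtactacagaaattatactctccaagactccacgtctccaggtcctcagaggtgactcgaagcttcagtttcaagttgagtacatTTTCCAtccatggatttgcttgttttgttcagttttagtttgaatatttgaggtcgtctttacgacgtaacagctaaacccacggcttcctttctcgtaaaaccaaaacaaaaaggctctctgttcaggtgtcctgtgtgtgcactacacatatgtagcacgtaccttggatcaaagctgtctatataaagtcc
Pdcd1: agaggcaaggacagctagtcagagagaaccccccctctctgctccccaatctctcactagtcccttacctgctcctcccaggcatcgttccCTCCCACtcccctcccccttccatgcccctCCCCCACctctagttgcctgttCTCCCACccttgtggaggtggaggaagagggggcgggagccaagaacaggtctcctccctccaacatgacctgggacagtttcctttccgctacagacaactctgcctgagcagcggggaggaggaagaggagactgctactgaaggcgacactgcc
Btla: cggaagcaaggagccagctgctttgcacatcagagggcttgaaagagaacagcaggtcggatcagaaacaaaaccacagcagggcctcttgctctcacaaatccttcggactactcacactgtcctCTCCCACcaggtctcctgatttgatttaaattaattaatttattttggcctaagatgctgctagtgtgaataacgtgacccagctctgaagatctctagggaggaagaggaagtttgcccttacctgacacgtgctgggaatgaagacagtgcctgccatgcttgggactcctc
The Ctla4 window held 1 match to the NFAT letters and 0 to the other motifs. The Pdcd1 window held 3 matches to the Egr letters, all on the strand opposite to the gene, and 0 to the others. The Btla window held 1 match to the Egr letters, also on the opposite strand, and 0 to the others. No match overlapped a match to another motif. Of 32851 promoters of the same length, 21.4% held the NFAT letters, 7.81% the AP-1 letters and 31.6% the Egr letters. G and C made up 42% of the Ctla4 window, 60.7% of the Pdcd1 window and 49% of the Btla window.

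The libraries held between 37176544 and 43115544 reads on genes, and between 10835 and 14791 genes had at least 10 reads. The T cell genes Cd3e and Trac had at least 26402 reads in every library, Cd44 had 4 to 536, Cd24a 271 to 3443, Cd4 218 to 1302 and Cd8a 922 to 4985. Cd69 was detected throughout, with 12858, 14520 and 16010 reads in BALB/c pools against 6120, 6950 and 9024 in SKG pools. Trav11, the variable segment of the invariant chain, had 1 to 7 reads per library and has a near-identical copy. Zap70 itself had 20537, 17495 and 16887 reads in BALB/c pools against 12983, 13150 and 14773 in SKG pools. The SKG allele changes the protein and not the presence of the mRNA, so these counts do not check the labels. Single libraries stood apart for genes of other cells. BALB/c replicate 1 had 1428 reads on the haemoglobin gene Hbb-bs, 2215 on the myeloid gene Lyz2 and 1438 on Rag1. SKG replicate 3 had 3873 reads on Lyz2. Genes of double-positive thymocytes were also found in SKG pools, with 379 reads on Rag1 in replicate 2 and 398 on Rag2 in replicate 3. Dntt had 3595, 759 and 146 reads in BALB/c pools against 266, 1615 and 1135 in SKG pools. The double-positive thymocyte markers summed to 67.7 to 437 CPM in BALB/c and 89.1 to 223 in SKG, and overlapped. Among the marker lists of other cells, the summed levels of 2 lists did not overlap between the genotypes, those of regulatory T cells, given with Ctla4, and of gamma-delta T cells. All 5 gamma-delta markers were in the table and summed to 12.6 to 25.2 CPM in BALB/c and 26.2 to 50.4 in SKG. Tcrg-C2 was the one tested marker of that list without overlap. It had 13, 1 and 40 reads in BALB/c pools against 93, 81 and 1089 in SKG pools. Trdc had 886, 289 and 763 reads in BALB/c pools against 625, 657 and 456 in SKG pools, and the genotypes overlapped. They also overlapped for Tcrg-C1, with 0, 179 and 250 reads against 193, 282 and 276. Sox13 had 0, 0 and 83 reads against 178, 0 and 2, and Trdv4 had 0 in all. The part of these cells in the results was not tested. In these bulk samples, fewer cells that express a gene and less RNA per cell cannot be told apart.

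Read per length of annotated exon, PD-1 mRNA was the most abundant of the family. In TPM (reads per kilobase of exon, scaled to the same total in each library), Pdcd1 was at 3463, 3608 and 3488 in BALB/c pools against 3177, 4008 and 4573 in SKG pools. Its mean ranked 14 among 11913 tested genes with a known exon length. Cd28 followed at 872, 978 and 813 TPM in BALB/c pools against 855, 1059 and 614 in SKG pools, at rank 114. Pdcd1 was above Cd28 in all 6 libraries, between 3.69 and 7.45 times. Much of this came from the exon lengths, 1930 bases for Pdcd1 and 6122 for Cd28, as the log2 ratio of their reads was 0.22 to 1.23. Btla was at 120, 118 and 178 TPM in BALB/c pools against 95.1, 66.0 and 69.2 in SKG pools, and Icos at 76.2, 153 and 84.1 in BALB/c pools against 84.2, 52.1 and 104 in SKG pools. Cd28 exceeded Btla between 4.57 and 16.0 times in the 6 libraries. Btla was above Icos in 4 of 6 libraries, so these neighbours in the order did not differ beyond their spread. Ctla4 was at 0.0702, 0 and 1.03 TPM in BALB/c pools against 0, 0.984 and 20.2 in SKG pools. Lag3 stayed at or under 0.309 TPM, and its order relative to Ctla4 varied, with Ctla4 above it in 4 of 6 libraries.

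**Figure D1:**
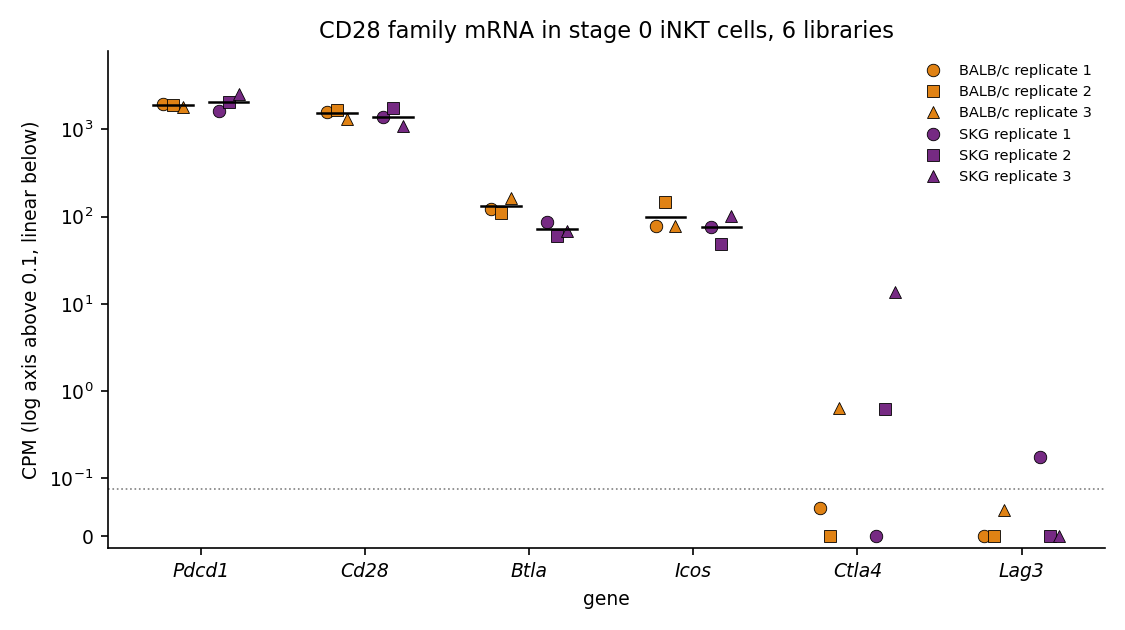
Read counts of the 6 genes, scaled to a common library total (CPM), in the 3 BALB/c (orange) and 3 SKG (purple) libraries, on an axis that is logarithmic above 0.1 and linear below. Bars are group means where every library is above 0, the dotted line is the level of 3 reads, and the genotypes separate for Btla, with 111 to 162 CPM in BALB/c against 60.4 to 86.0 in SKG.

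Between SKG and BALB/c cells, edgeR's quasi-likelihood test with thresholds of 0.1 for the false discovery rate (FDR) and 1.5 for the fold change called 0 of the 5 family members that had enough reads to be tested. Lag3 was removed by the filter on low counts. The same test called 0% of all 12312 genes tested, with a lowest adjusted p of 0.212, so the count of 0 is not particular to the family. At an unadjusted p under 0.05 there was 1 member, Btla, or 20% of 5, beside 5.45% of all genes. The genotypes were without overlap for the same 1 member, beside 13.9% of all genes, and 7.12% of all genes lay wholly lower in SKG as Btla did. The other test, DESeq2, called 1 member, again Btla, when fold changes were shrunken, beside 2.14% of 6816 genes. Without shrinkage and without a filter on low counts it also called Btla, beside 2.58% of 14365 genes, while limma-voom called 0 members. The median log2 fold change, SKG over BALB/c, was -0.11 over the 5 members and -0.02 over all genes tested.

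Among the costimulators, Cd28 was close to level between the genotypes. It was at 1583, 1660 and 1331 CPM in BALB/c pools against 1395, 1744 and 1086 in SKG pools. CPM here is taken over the reads on tested genes, scaled with TMM factors. The groups overlapped fully, and both the highest and the lowest value came from SKG libraries. The means were 1525 ± 172 (SD, n = 3) in BALB/c pools against 1408 ± 330 (SD, n = 3) in SKG pools. The log2 fold change was -0.11 (standard error 0.20, 95% interval -0.59 to 0.36, edgeR, adjusted p = 0.991), so the interval reaches from a level 1.28 times higher in SKG to one 1.5 times higher in BALB/c. Without SKG replicate 3 it was 0.056, so even its sign rested on that library.

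Icos, the inducible costimulator, was at 77.5, 146 and 77.2 CPM in BALB/c pools against 77.0, 48.1 and 103 in SKG pools. One BALB/c library stood above the rest, and 3 of the 6 libraries lay between 77.0 and 77.5 CPM. The means were 100 ± 39.5 (SD, n = 3) and 76.0 ± 27.4 (SD, n = 3), and the log2 fold change was -0.40 (standard error 0.39, 95% interval -1.34 to 0.54, edgeR, adjusted p = 0.991). Without BALB/c replicate 2 it moved to -0.038, and without SKG replicate 3 to -0.67. A difference in Icos smaller than the spread between pools could not be seen with these libraries.

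Of the inhibitory receptors, Pdcd1 was the most abundant and among the steadiest. Its reads gave 1982, 1932 and 1802 CPM in BALB/c pools against 1634, 2082 and 2549 in SKG pools. The BALB/c libraries lay between the lowest and the middle SKG library. The means were 1905 ± 93.0 (SD, n = 3) and 2088 ± 457 (SD, n = 3). The log2 fold change was 0.13 (standard error 0.18, 95% interval -0.29 to 0.55, edgeR, adjusted p = 0.991), and without SKG replicate 3 it was -0.022. The spread of its log2 CPM within a genotype, an SD of 0.23, was at percentile 10.0 of all genes tested. For Cd28 and Btla these percentiles were 14.5 and 14.7, for Icos 43.3 and for Ctla4 91.7.

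Btla, which encodes the receptor for HVEM, was the member that separated the genotypes. It had 4979, 4135 and 7295 reads in BALB/c pools against 3467, 2347 and 2453 in SKG pools, or 121, 111 and 162 CPM against 86.0, 60.4 and 67.8. Each of the 3 SKG libraries lay below each BALB/c library. The means were 131 ± 26.6 (SD, n = 3) and 71.4 ± 13.2 (SD, n = 3), a fold of 1.84 expressed as BALB/c over SKG (95% interval 1.22 to 2.77). The log2 fold change, SKG over BALB/c, was -0.88 (standard error 0.25, edgeR, unadjusted p = 0.0102), but over all genes tested the adjusted p was 0.734 and the call was not made. Leaving out single libraries gave log2 fold changes from -1.04 to -0.70. DESeq2 gave a log2 fold change of -0.74 with shrinkage (adjusted p = 0.0991) and -0.86 without (adjusted p = 0.121), close to the threshold on either side. The B cell markers, whose cells also express Btla, summed to 8.73 to 94.9 CPM in BALB/c and 7.40 to 45.0 in SKG. All 7 were in the table and the summed levels of the genotypes overlapped. Ighm, the most abundant of them, had 3633, 254 and 583 reads in BALB/c pools against 142, 816 and 1323 in SKG pools. Cd79a had 274, 1 and 77 reads in BALB/c pools against 20, 98 and 0 in SKG pools, and Pax5, a defining factor of that lineage, had 5 reads in SKG replicate 1 and 0 elsewhere. The marker sum was highest in BALB/c replicate 1 and Btla in BALB/c replicate 3, and the part of B cells in the Btla result was not tested further.

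Ctla4 was nearly silent. It had 2, 0 and 29 reads in BALB/c pools against 0, 24 and 492 in SKG pools. A count of 0 allows up to 3 reads, or 0.0696 to 0.0807 CPM of the library totals, and this limit covers counting error only. Of the reads on Ctla4, most came from SKG replicate 3, and the other SKG libraries lay within the BALB/c range. The fitted log2 fold change of 4.34 (standard error 2.81, edgeR, adjusted p = 0.982) was 0.44 without SKG replicate 3 and 7.40 without BALB/c replicate 3, so it is not read as a fold change. The same SKG library had 1254 reads on Il2ra and 704 on Cd86. The next highest Il2ra count was 434, from BALB/c replicate 1. Among the myeloid markers, SKG replicate 3 had 385 reads on Fcgr3, 1018 on Cd68 and the highest Lyz2, but 0 on Csf1r, Itgam and Adgre1. The dendritic cell markers Itgax, Flt3, Zbtb46, Xcr1 and Cd209a also had 0 reads there. Of the same list, Siglech had 270 reads and H2-Ab1, which was found in every library, had 1502. The regulatory T cell markers, cells that express Ctla4 at rest, summed to 215 to 302 CPM in BALB/c and 384 to 496 in SKG, and did not overlap. All 7 were in the table, and Gpr83 was the one tested marker without overlap, at 15.5 CPM in BALB/c pools against 136 in SKG pools on average. Ikzf2 made up the largest part of the sum in each library. It was at 164 to 252 CPM in BALB/c and 206 to 292 in SKG, and overlapped. Tnfrsf18 and Il2ra overlapped as well, and Lrrc32 had at most 4 reads. Foxp3, the defining factor of that lineage, had 0 reads in 5 libraries and 20 in SKG replicate 1, where Ctla4 had 0, and Il10 had 0 in all. The myeloid markers summed to 4.36 to 64.8 CPM in BALB/c and 6.13 to 146 in SKG, with the highest sum in SKG replicate 3. The part of other cells in the Ctla4 reads of that library was not tested.

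Lag3 had 0, 0 and 2 reads in BALB/c pools against 7, 0 and 0 in SKG pools. Only SKG replicate 1 was above the 3 reads that a count of 0 allows, and expression in either genotype was at the limit of what this depth can detect.

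Ratios of reads within a library do not depend on how libraries are scaled. Relative to Cd28, the log2 ratio of Btla was -3.71, -3.90 and -3.04 in BALB/c and -4.02, -4.85 and -4.00 in SKG. The 3 SKG libraries again lay below the 3 BALB/c libraries. The mean difference was -0.74 (two-sided exact permutation test, p = 0.1, the smallest that 3 against 3 libraries can give). Adjusted over the 5 ratios compared it was p = 0.5 in the same exact test. The log2 ratio of Pdcd1 to Cd28 was 0.32, 0.22 and 0.44 in BALB/c pools against 0.23, 0.26 and 1.23 in SKG pools. It stood apart in SKG replicate 3, which had the highest Pdcd1 and the lowest Cd28 of all libraries, and the other SKG libraries were within the BALB/c range (exact permutation test, p = 0.8). For Icos the log2 ratios were -4.35, -3.51 and -4.11 in BALB/c and -4.18, -5.18 and -3.40 in SKG, and the genotypes overlapped (exact permutation test, p = 0.8).

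**Figure D2:**
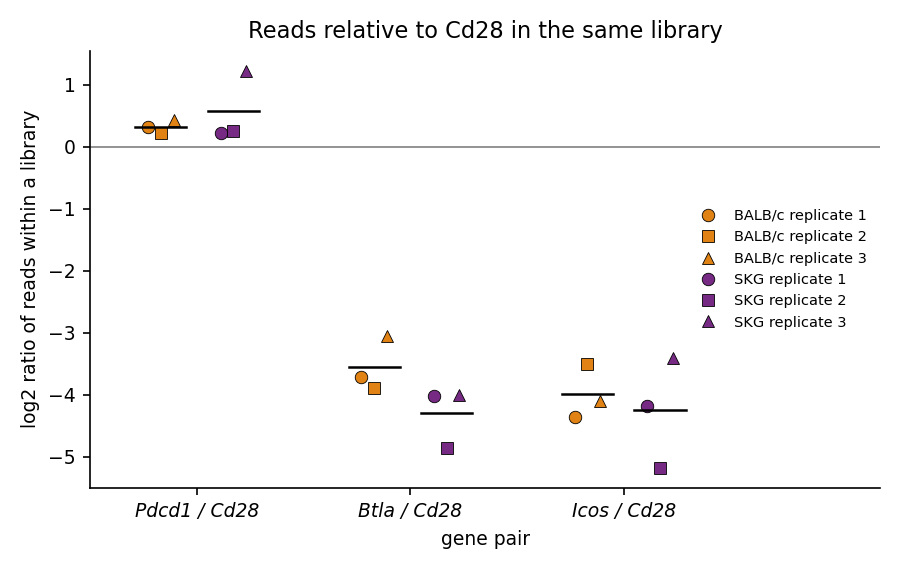
Log2 ratio of reads on Pdcd1, Btla and Icos to reads on Cd28 in the same library, for 3 BALB/c (orange) and 3 SKG (purple) libraries, with group means as bars. SKG replicate 3 stands apart for Pdcd1 at 1.23, and for Btla the highest SKG value, -4.00, lies just under the lowest BALB/c value, -3.90.

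The members varied with each other to different degrees over the 6 libraries. The Pearson correlations of log2 CPM with Cd28 were -0.26 for Icos, -0.39 for Pdcd1 and 0.05 for Btla, and that of Pdcd1 with Btla was -0.51. The strongest pair was Pdcd1 with Ctla4, at 0.81, and both had their highest value in SKG replicate 3. Cd28, at its lowest in that library, had a correlation of -0.69 with Ctla4. Icos had correlations of 0.32 with Btla, 0.12 with Pdcd1 and -0.12 with Ctla4, and Btla had -0.39 with Ctla4. These are descriptions over 6 libraries that differ in genotype, depth and detected genes. The tested genes most like Btla in pattern were Gm14494, Dbi and Gm7331, with correlations of 0.996, 0.994 and 0.989. For Pdcd1 they were Rhog, Ppp2r2a and Larp7, with 0.988, 0.988 and 0.984. For Cd28 they included Osbpl5 and H2-Q10 (0.987 and 0.983), and for Icos they were Npepps, Chmp6 and Kmt2c (0.993, 0.977 and 0.976). With 12312 genes and 6 points, correlations of this size are found for many pairs.

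Genes next to the members were read in the same way. Within 500 kb of Cd28, Ctla4 and Icos there were 10, 9 and 8 tested genes, and for 0 of them did the genotypes separate. These windows overlap, so most of their genes are counted in each, and each window also counts the other members in it. Around Pdcd1 it was 1 of 11, the autophagy gene Atg4b, and around Lag3 it was 5 of 38. Around Btla it was 2 of 9, Cd200 and BC016579, both lower in every SKG library. Over all genes tested the genotypes separated for 13.9%, and 7.12% were wholly lower in SKG, so the counts around Pdcd1 and Lag3 are near the background and those around the other members rest on few genes. Cd200, 124 kb from Btla, encodes the ligand of an inhibitory receptor on myeloid cells. It had 134, 68.0 and 112 CPM in BALB/c pools against 47.3, 62.3 and 52.5 in SKG pools. BC016579, 369 kb from Btla, had 34.3, 31.9 and 27.2 CPM in BALB/c pools against 7.69, 5.71 and 0.111 in SKG pools. Atg3, 35.8 kb from Btla and nearer to it than either, was at 105, 114 and 84.7 CPM in BALB/c pools against 92.5, 79.4 and 172 in SKG pools.

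The ligands gave a further view of the BTLA and PD-1 axes. Of 8 ligand genes, 4 had enough reads to be tested, 0 were called and 0 had an unadjusted p under 0.05. Their median log2 fold change was -0.31. For 2 of the 4 the genotypes did not overlap, beside 13.9% of all genes, and both were lower in SKG. Tnfrsf14 encodes HVEM, the ligand of BTLA and CD160. It had 6775, 5984 and 7201 reads in BALB/c pools against 3827, 4928 and 5080 in SKG pools, or 162 ± 2.43 and 121 ± 23.3 CPM (SD, n = 3). The log2 fold change was -0.42 (standard error 0.20, edgeR, adjusted p = 0.952), with BALB/c libraries close together and SKG libraries spread below them. Per length, Tnfrsf14 was the more abundant partner, at 401 ± 14.7 TPM (SD, n = 3) in BALB/c beside 139 ± 33.8 for Btla. Cd160, the other receptor for HVEM, had 2154, 2817 and 2369 reads in BALB/c pools against 763, 1513 and 1667 in SKG pools (log2 fold change -0.80, standard error 0.42, edgeR, adjusted p = 0.959). Tnfrsf14 and Cd160 were named for their lack of overlap, and 7.12% of all genes were wholly lower in SKG as they and Btla were, so that nothing is read from the number of such genes here. None of them passed the FDR threshold of edgeR.

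Of the PD-1 ligands, Pdcd1lg2 (PD-L2) was at 30.5, 19.2 and 18.4 CPM in BALB/c pools against 7.99, 12.1 and 18.1 in SKG pools. The closest libraries of the genotypes differed by less than 1 CPM. Its log2 fold change was -0.83 with a standard error of 0.61 (edgeR, adjusted p = 0.988). Cd274 (PD-L1) was at 112, 89.6 and 136 CPM in BALB/c pools against 99.1, 143 and 53.3 in SKG pools, and the genotypes overlapped. The ligands of CD28, CTLA-4 and ICOS, which antigen-presenting cells express, were almost undetected outside single libraries. Cd80 had 12 reads in BALB/c replicate 3 and 0 elsewhere, Icosl had 56 in BALB/c replicate 3 and 0 to 2 elsewhere, and Cd86 had 704 in SKG replicate 3 and 0 to 2 elsewhere. Fgl1, a ligand of LAG-3, had at most 9 reads.

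**Figure D3:**
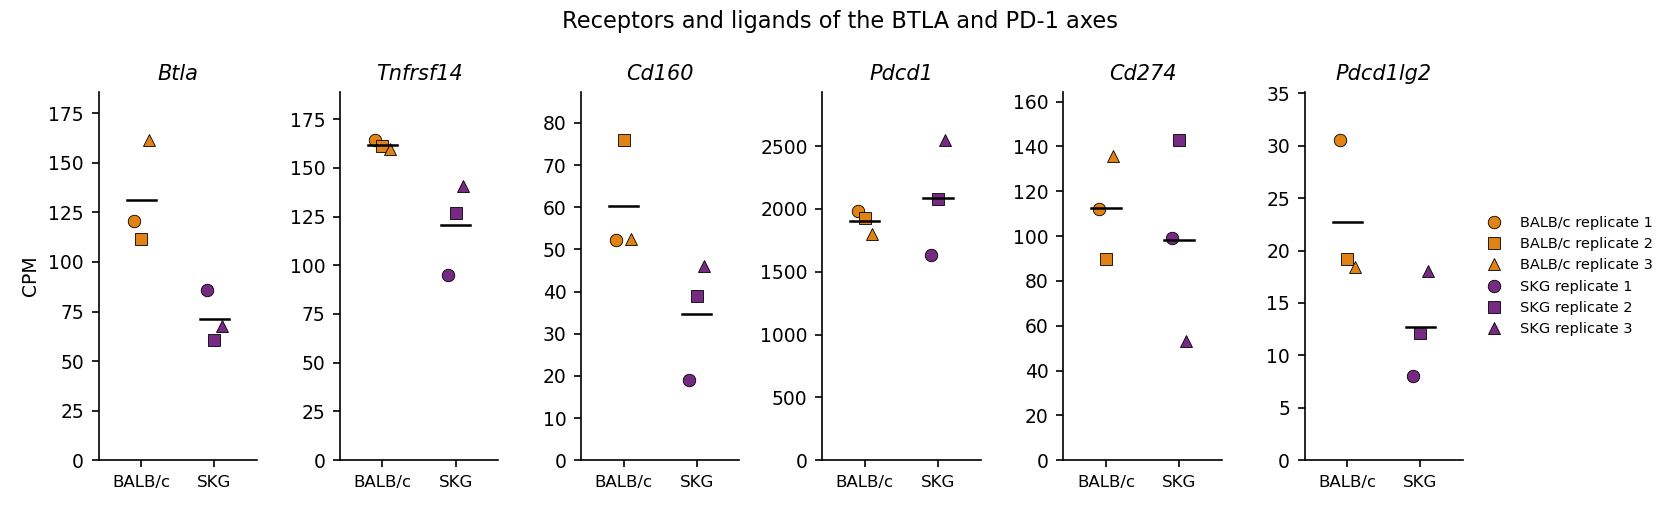
CPM in each of the 3 BALB/c (orange) and 3 SKG (purple) libraries for BTLA, its ligand HVEM (Tnfrsf14), the second HVEM receptor CD160, PD-1 and its ligands PD-L1 (Cd274) and PD-L2 (Pdcd1lg2), each on its own axis from 0, with group means as bars. Btla, Tnfrsf14, Cd160 and Pdcd1lg2 lie wholly lower in SKG, as do 7.12% of all genes tested, whereas Pdcd1 and Cd274 overlap.

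Among other coinhibitory and costimulatory receptors, 11 of 13 were tested, 4 higher and 7 lower in SKG, with a median log2 fold change of -0.11 and 0 called. The genotypes did not overlap for 4 genes, beside 13.9% of all genes, and the 4 were all lower in SKG: Cd160, Cd200, Vsir and Cd2, the last of which was added to the named genes after its values were seen. Vsir, which encodes the checkpoint VISTA, had 2546, 1030 and 784 reads in BALB/c pools against 164, 208 and 1 in SKG pools. The libraries of each genotype differed among themselves by several times, and the log2 fold change of -3.50 carried a standard error of 1.52 (edgeR, adjusted p = 0.944). Cd200 had a log2 fold change of -0.96 (standard error 0.31, edgeR, adjusted p = 0.833). Cd6, a tuning receptor whose level follows TCR signals, was at 720 ± 131 CPM (SD, n = 3) in BALB/c pools against 1018 ± 168 (SD, n = 3) in SKG pools, with overlapping libraries (edgeR, adjusted p = 0.871). Its relative Cd5 was at 586 ± 49.3 and 591 ± 57.2 CPM (SD, n = 3), with a 95% interval of the log2 fold change from -0.32 to 0.34. Havcr2, which encodes TIM-3, had 8 reads in SKG replicate 1 and 0 elsewhere.

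Downstream of the receptors, all 18 proximal signalling genes were tested, 13 higher and 5 lower in SKG. Their median log2 fold change was 0.34 beside -0.02 over all genes, and 0 were called. Over all genes tested, 6030 were higher and 6282 lower in SKG. An unadjusted p under 0.05 (edgeR) was found for 2 of the 18, beside 5.45% of all genes. The genotypes did not overlap for 3 of the 18, Ptpn11, Prkcq and Pik3r1, beside 13.9% of all genes. Ptpn11 encodes SHP-2, the phosphatase that PD-1 and BTLA recruit. It had 445, 1290 and 2006 reads in BALB/c pools against 3362, 3819 and 3206 in SKG pools, and the log2 fold change was 1.59 (standard error 0.52, edgeR, adjusted p = 0.833). All SKG libraries were above all BALB/c libraries, and the BALB/c libraries were far more spread. Ptpn6, which encodes the related SHP-1, was at 317 ± 57.6 and 303 ± 14.6 CPM (SD, n = 3). Prkcq encodes the kinase PKC-theta that acts with CD28. It was at 220, 286 and 315 CPM in BALB/c pools against 370, 414 and 447 in SKG pools (log2 fold change 0.58, standard error 0.18, edgeR, adjusted p = 0.830). Pik3r1, the regulatory subunit of phosphatidylinositol 3-kinase, was the gene of this list that was wholly lower in SKG, at 32.9 ± 6.91 and 22.3 ± 2.87 CPM (SD, n = 3).

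Regulators of the mRNA or protein of the family were also read. Of 13 genes 12 were tested, 8 higher and 4 lower in SKG, with a median log2 fold change of 0.19 and 0 called. The genotypes did not overlap for 2 of the 12, Def6 and Adam17, beside 13.9% of all genes, and both were higher in SKG. Def6, which takes part in CTLA-4 trafficking, was at 277 ± 65.7 CPM (SD, n = 3) in BALB/c pools against 428 ± 24.3 (SD, n = 3) in SKG pools (edgeR, adjusted p = 0.830). Adam17, a protease that sheds LAG-3, was at 117 ± 37.6 and 168 ± 16.5 CPM (SD, n = 3), with an adjusted p of 0.953 (edgeR). Its closest libraries differed little, at 154 in BALB/c pools against 156 in SKG pools. Rc3h1 encodes Roquin-1, which degrades Icos mRNA. It had 1810, 1634 and 1941 reads in BALB/c pools against 1229, 1183 and 2722 in SKG pools. The SKG library with the most Rc3h1 was also the SKG library with the most Icos. In CPM, Rc3h1 was almost level across the BALB/c pools, whereas Icos was highest in BALB/c replicate 2. A link between Rc3h1 and Icos was not tested.

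The transcription factors known at Pdcd1, Ctla4 or Icos differed in direction. Of 17 genes 13 were tested, 8 higher and 5 lower in SKG, with a median log2 fold change of 0.19. The genotypes did not overlap for 5 of them, beside 13.9% of all genes, with Nfatc1, Nfatc3, Satb1 and Jun higher and Egr2 lower in SKG, and Jun was added to the named genes after its values were seen. Nfatc1, an activator of Pdcd1, was at 1154, 1176 and 1170 CPM in BALB/c pools against 1869, 2633 and 1829 in SKG pools. Its log2 fold change was 0.85 (standard error 0.17, edgeR, adjusted p = 0.617). Satb1, a chromatin organizer that represses Pdcd1 in T cells, was at 237, 357 and 235 CPM in BALB/c pools against 907, 599 and 1153 in SKG pools, and the log2 fold change was 1.68 (standard error 0.29, edgeR, adjusted p = 0.617). Both were called by every DESeq2 fit that was run. Egr2 was at 1351 ± 230.1 CPM (SD, n = 3) in BALB/c pools against 777 ± 249 (SD, n = 3) in SKG pools (edgeR, adjusted p = 0.834). Pdcd1, whose promoter window held the Egr letters 3 times, had a log2 fold change of 0.13 over the same libraries. Those letters were found in 31.6% of all promoters, and a link between Egr2 and Pdcd1 was not tested. Prdm1 and Tbx21 had 0 reads in all 6 libraries, and their products repress Pdcd1 in effector cells.

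Genes that CD28 costimulation is known to induce did not follow 1 direction. Of 10 genes 9 were tested, 5 higher and 4 lower in SKG, with a median log2 fold change of 0.14 and 0 called. Myc was at 393 ± 28.4 CPM (SD, n = 3) in BALB/c pools against 146 ± 26.1 (SD, n = 3) in SKG pools (log2 fold change -1.43, standard error 0.18, edgeR, adjusted p = 0.328), and every DESeq2 fit called it. Mcl1, a survival factor, was at 317 ± 48.4 and 429 ± 55.1 CPM (SD, n = 3), with all SKG libraries above all BALB/c libraries (edgeR, adjusted p = 0.894). Over the 6 lists beside the members, 67 genes were tested, 39 were higher and 28 lower in SKG, and 0 were called. The genotypes did not overlap for 18 of them, or 26.9%, 9 in each direction, beside 13.9% of all genes, and 12, or 17.9%, had an unadjusted p under 0.05, beside 5.45% of all genes. These lists were chosen with earlier results of these libraries known, so that the shares describe the lists and do not compare them with other genes.

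**Figure D4:**
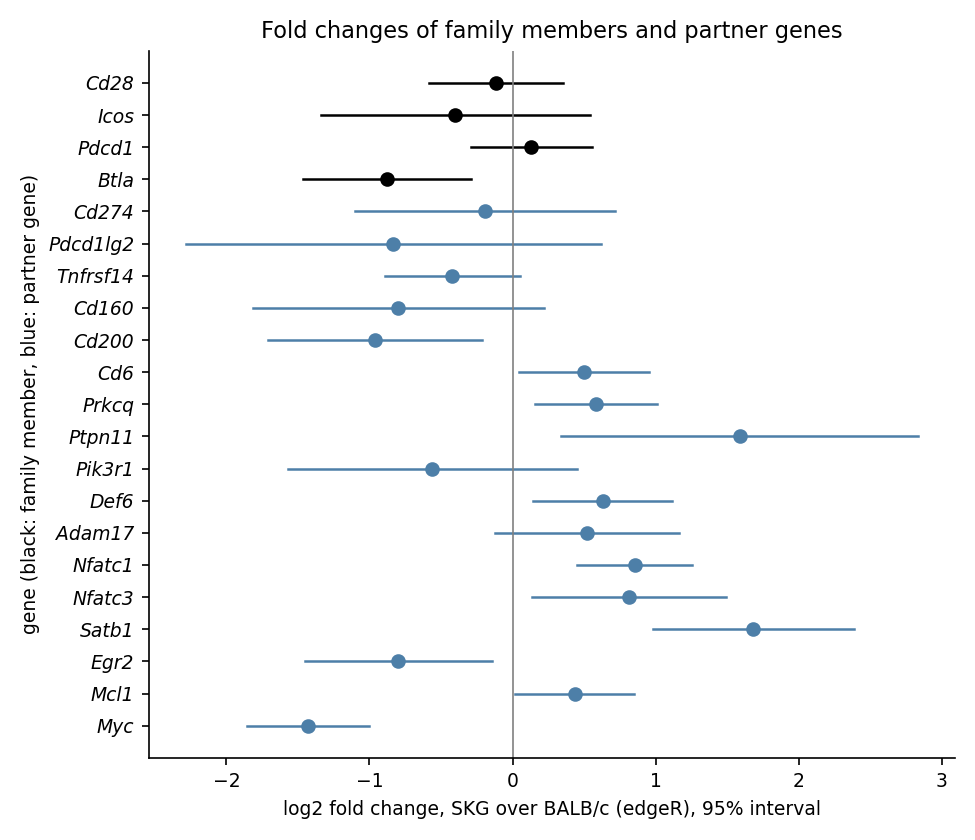
Log2 fold change, SKG over BALB/c, with its 95% interval from edgeR, for 4 family members (black) and 17 partner genes (blue). Among the members the interval of Btla, -1.47 to -0.29, lies to the left of 0 and those of Cd28, Icos and Pdcd1 include 0, but none of the genes plotted passed the FDR threshold.

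**Figure D5:**
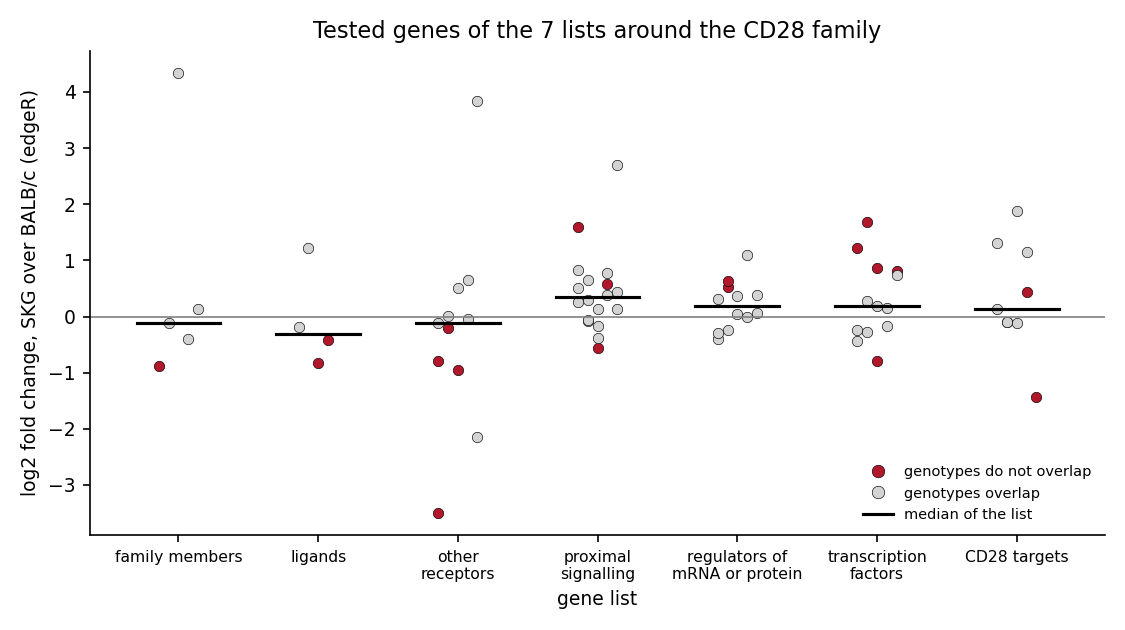
Log2 fold change, SKG over BALB/c, of every tested gene in the 7 lists, with red points where the libraries of the genotypes do not overlap and a bar at the median of each list. Medians run from -0.31 for the ligands to 0.34 for proximal signalling, and the grey point at 4.34 among the family members is Ctla4, whose value rests on 1 library.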

How the data were processed

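The authors sequenced 50-nucleotide single-end reads from SMART-Seq v4 libraries (18 preamplification cycles, then 12 cycles after tagmentation, per the labels, whereas the study's methods name another kit), aligned them to GRCm38 with HISAT2 (2.1.0) and counted reads of mapping quality 10 or more on genes with featureCounts (Subread 1.4.4), without strand. The deposited matrix holds these raw counts, which carry no molecular identifiers, so PCR copies are counted and limits cover counting error only. A second deposited table, with the authors' fold changes and adjusted p-values from DESeq2 (1.14.1), was not used.

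Here counts were filtered (filterByExpr, 12312 genes kept), scaled with TMM factors and tested with edgeR's quasi-likelihood test (edgeR 4.0.16, limma 3.58.1, R 4.3.3), over all 6 libraries, SKG against BALB/c, with Benjamini-Hochberg adjustment. The thresholds, an FDR of 0.1 and a fold change of 1.5, are those of the study. Prior counts of 2 were used for log2 CPM and a pseudocount of 1 read for ratios. TPM used union exon lengths of GENCODE annotation for GRCm38. DESeq2 (1.42.0), limma-voom, other scaling factors, other filters, replicate numbers as a block, the number of detected genes as a covariate and leaving out each library were alternatives. The scripts were tested on simulated data.

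The members and gene lists were chosen with earlier results of these data known. Named genes are the 6 members, in each list at most 4 genes with the lowest p among those without overlap or with an unadjusted p under 0.05, the 3 genes most correlated with a member, and neighbours within 500 kb. Of 154 genes in the lists, 153 were found; Pvrig was not matched. A planned search of protein motifs was not run. Most neighbours are given as counts, with values for those of Btla without overlap and the nearest tested one. Some genes that these rules name are not reported here.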

Additional observations from a re-analysis of the deposited data

How the results depend on the processing

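EdgeR called 0 genes and 0 family members with every other scaling, limma-voom, the covariate, each library left out (0 to 0) and an FDR of 0.05 or no fold threshold, which could not have added a call. Without a filter it called 2 genes, and with at least 10 reads in all libraries 1 gene, none of them a member. DESeq2 called 146 genes with shrunken fold changes and 189 without. On the unfiltered table, alternatives chosen after seeing the data, it called 229 and 370. Btla was the 1 member called in the first and the last of these fits (log2 fold change -0.74 and -0.85), and in the others its adjusted p was 0.121 and 0.134. The cause was not tested.

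The log2 fold change of Btla ranged from -1.04 to -0.70 over the 21 alternatives, among which those that change only a threshold reuse the main fit. Each SKG library lay below each BALB/c library, so its kept sign when a library is left out is no added support. With single libraries left out, Cd28 ranged from -0.29 to 0.056 and Pdcd1 from -0.022 to 0.28, and both reversed, with the log2 ratio of Pdcd1 to Cd28 (-0.084), without SKG replicate 3. The log2 ratio of Icos to Cd28 reversed to 0.20 without SKG replicate 2, and that of Lag3 to -0.26 without SKG replicate 1. With single libraries left out, the ratio differences ranged from -0.91 to -0.46 for Btla, -0.69 to 0.20 for Icos, 0.17 to 4.90 for Ctla4, -0.084 to 0.42 for Pdcd1 and -0.26 to 1.38 for Lag3. Of the 17 partner genes named by rule, 0 reversed in any setting, and 3 (Nfatc1, Satb1 and Myc) were called by DESeq2. The 17 were chosen for a lack of overlap or a low unadjusted p in these same libraries. Their kept signs are therefore no added support. Vsir was among the 17 and Cd274 was not, so Cd274 was not checked for reversal.

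With the replicate number as a block 0 genes were called, and with the library number as a block 0 as well. In the latter fit BALB/c replicate 3 (number 4) and SKG replicate 1 (number 1) were each alone in their block. Little was left there to estimate the spread, so its count of 0 carries no weight. Deviations of same-numbered libraries correlated between -0.15 and 0.003, so no pairing by number was seen, though so few pairs cannot settle it. The log2 fold change of Btla was -0.87 and -0.86 under the blocks, the latter resting on the libraries that share a number. Depth limits what can be said of Lag3, and of Ctla4 in the libraries with 0 to 2 reads, whereas the fitted value of Ctla4 rests on 1 library.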
